A study of Mus musculus with 28 samples.

Results

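The difference in RNA between hemogenic endothelium (HE) and endothelial cells (EC) of the mouse embryo was measured on embryonic day 8.5 (E8.5) and again on E10.5. The question was for which genes that difference changed. For each gene, the log2 difference of HE minus EC at E8.5 was subtracted from that at E10.5. A positive value of this difference of differences is a gene that stood higher in HE, relative to EC, at E10.5 than at E8.5. The contrast sets the 13 libraries of these 4 groups against each other, while the fit behind its tests took in all 28 libraries of the series, and 15238 of the 24015 genes in the table had enough counts to be tested. Of these, 29 genes reversed, being higher in HE on one day and lower in HE on the other.

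E10.5 HE (3 libraries) was set against E10.5 EC (3 libraries), and the difference of this pair against that of E8.5 HE (4 libraries) and E8.5 EC (3 libraries). Each library was made from 100 sorted cells. The tissue is labelled AGM+VU at E10.5 and PAS+VU at E8.5, so day and dissected tissue cannot be told apart. All 4 groups carry the genotype label 23GFP transgenic, and the sources used here do not give the gates that separated HE from EC. The series text calls the replicates biological but does not say that they came from separate litters, so p-values measure the spread between these libraries, which may in part be technical. Total counts ran from 16308918 to 31405603 per library, and 13935 to 15715 genes had a count. Replicates correlated at 0.942 to 0.981 (log2 CPM + 1, across genes). The lowest values, 0.942 and 0.944, were those of E8.5 EC replicate 3 with the other E8.5 EC libraries, which correlated with each other at 0.981.

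Hemogenic endothelium is the small set of cells in the wall of embryonic arteries that turns into blood. In this endothelial-to-hematopoietic transition, flat endothelial cells lose their junctions, round up and leave the vessel wall as blood progenitors and stem cells. The transcription factor Runx1 is required for the step, and Gfi1 acts downstream of it to silence endothelial genes. Notch signalling takes part in arterial and hemogenic identity, and its ligand Jag1 is needed for blood stem cells to form in the aorta. Endothelial cells of the same vessels keep an arterial, venous or lymphatic fate, and during these days the first blood flow reaches the vessels.

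The labels were set against defining genes. Cdh5, the endothelial cadherin, was present in all 13 libraries, with 739, 721 and 696 CPM in the E10.5 HE libraries and 359, 509.8 and 372 CPM in the E10.5 EC libraries, against 228, 289, 536 and 265 CPM in the E8.5 HE libraries and 91.4, 94.8 and 129 CPM in the E8.5 EC libraries. The HE libraries lay above the EC libraries on both days, and the difference was not called at E10.5 (0.80 ± 0.29 log2 ± SE, edgeR adjusted p = 0.14) but was at E8.5 (1.65 ± 0.28, edgeR adjusted p = 0.00033). Ptprc, the pan-leukocyte gene CD45, averaged 0.707 CPM in E10.5 HE, 0.0839 CPM in E10.5 EC and 0.0336 CPM in E8.5 HE, and had no count in E8.5 EC. Runx1, the defining factor of hemogenic endothelium, had 39.5, 43 and 52.3 CPM in the E10.5 HE libraries and 1.8, 2.5 and 2.21 CPM in the E10.5 EC libraries, against 3.46, 3.42, 3.14 and 1.03 CPM in the E8.5 HE libraries and 4.43, 5.14 and 1.25 CPM in the E8.5 EC libraries. It separated HE from EC at E10.5 (4.37 ± 0.40, edgeR adjusted p = 1.4e-07), whereas at E8.5 the libraries overlapped (-0.41 ± 0.34, edgeR adjusted p = 0.52). Kit, the stem cell factor receptor, overlapped between HE and EC on both days, with 55.3, 35.6 and 61.8 CPM in E10.5 HE against 32.3, 102 and 77.3 CPM in E10.5 EC, and 68, 101, 78.5 and 119 CPM in E8.5 HE against 97.3, 79 and 174 CPM in E8.5 EC. Neither gene was called between HE and EC at E8.5, so the label HE on that day was not backed by Runx1 or Kit RNA.

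Markers of other cells moved with the groups. The summed level of 18 neural and neural crest markers was 482 to 645 CPM in E10.5 HE and 122 to 165 CPM in E10.5 EC, against 29.3 to 83.7 CPM in E8.5 HE and 10.2 to 23.0 CPM in E8.5 EC. At E10.5 most of it was Stmn2, while 9 of the 18, among them Sox10, Foxd3 and Sox1, were at 0 in E10.5 HE. The sum of 20 cardiac markers was 107 to 236 CPM in E10.5 HE and 20 to 26 CPM in E10.5 EC, against 52.9 to 80.4 CPM in E8.5 HE and 50.4 to 86.9 CPM in E8.5 EC, with Nkx2-5 and Nppa at 0 in both HE groups. Its largest parts in E10.5 HE were Isl1 and Actc1, with means of 63.2 and 56.7 CPM. For 13 mesonephric markers the sum was 115 to 173 CPM in E10.5 HE and 29.1 to 34.6 CPM in E10.5 EC, against 42 to 128 CPM in E8.5 HE and 48.2 to 57.8 CPM in E8.5 EC. At E10.5 most of it was Gata3, with means of 105 CPM in HE and 24.3 CPM in EC. Pax2, Pax8, Lhx1 and Emx2 were at 0 in E10.5 HE. The 19 mesenchyme and smooth muscle markers summed to 234 to 936 CPM in E10.5 HE and 46.3 to 385 CPM in E10.5 EC, against 38.4 to 107 CPM in E8.5 HE and 64.9 to 96.4 CPM in E8.5 EC, with Acta2 the largest part at E10.5. The allantois and extraembryonic mesoderm markers, by sum mostly Plac1, were lower in HE at E8.5, at 349 to 500 CPM in E8.5 HE against 743 to 871 CPM in E8.5 EC. So were the germ cell markers, at 182 to 303 CPM in E8.5 HE against 408 to 432 CPM in E8.5 EC. The largest part in E8.5 EC was Ifitm1, with means of 84.4 CPM in E8.5 HE and 233.8 CPM in E8.5 EC. Dppa4 and Prdm1 went the other way, at 12.9 and 15.95 CPM in E8.5 HE against 4.16 and 5.58 CPM in E8.5 EC. In sorted bulk samples fewer cells of a type and less RNA per cell cannot be told apart, and the part of these markers in the results was not tested.

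The HE-EC difference changed for 475 genes, 3.12% of those tested (edgeR quasi-likelihood test, Benjamini-Hochberg adjusted p under 0.05). The difference was higher at E10.5 for 141 genes (0.925%) and lower for 334 (2.19%). At an unadjusted p under 0.05 there were 2214 genes. A value given in parentheses after the levels of a gene is its difference of differences in log2 ± SE, with the adjusted p of the same edgeR test. The estimated differences of the 2 days had opposite signs in 378 of the 475 called genes (79.6%), against 6665 of all 15238 genes tested (43.7%). Genes called for a large gap between the days are by that choice more often of opposite sign, so these shares are a description. Within a day, 534 genes differed between HE and EC at E10.5, 327 higher in HE (2.15%) and 207 lower (1.36%). At E8.5 there were 1060, 782 higher in HE (5.13%) and 278 lower (1.82%). The libraries outside the contrast bear on these counts through the spread they share in the fit. A fit of only the 13 libraries called 68 genes higher and 170 lower, with 3 reversals to higher and 14 to lower in HE. A fit of the 28 libraries with a term for each replicate number within a day (replicate block) called 380 higher and 546 lower. It gave 37 reversals to higher and 71 to lower in HE. Single libraries moved the counts too. Without E10.5 EC replicate 3 the lower differences numbered 221. Without E10.5 HE replicate 2 or 3 or E10.5 EC replicate 1 or 3 the E10.5 calls numbered 320, 306, 314 and 312 in that order. Without E8.5 HE replicate 3 the E8.5 calls numbered 594. The 2 sets had 151 genes in common, of which 122 differed in the same direction (22.8% of the E10.5 genes and 11.5% of the E8.5 genes) and 29 in opposite directions (5.43% and 2.74%). Across all tested genes, most of them called on neither day, the E10.5 difference correlated little with the E8.5 difference (Pearson r = 0.054 and Spearman rho = 0.138, across genes, which are not independent replicates). The E9.5 difference correlated with that of E8.5 at Pearson r = 0.129 and with that of E10.5 at 0.205. The part of noise between libraries in these low values was not tested.

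The called genes fell into classes by the day on which HE and EC differed. Of the 334 whose difference was lower at E10.5, 201 were called at E8.5 only, where they were higher in HE, 63 were called at E10.5 only, where they were lower in HE, and 24 reversed. A further 39 were called on neither day, and 7 were higher in HE on both days but by less at E10.5, among them the arterial gap junction gene Gja5 and B2m. Of the 141 whose difference was higher at E10.5, 72 were called at E10.5 only, where they were higher in HE, 34 were called at E8.5 only, where they were lower in HE, 28 were called on neither day, and 5 reversed. The remaining pair, Pdlim1 and Ocln, was higher in HE on both days and is named here after its values were seen.

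**Figure D1:**
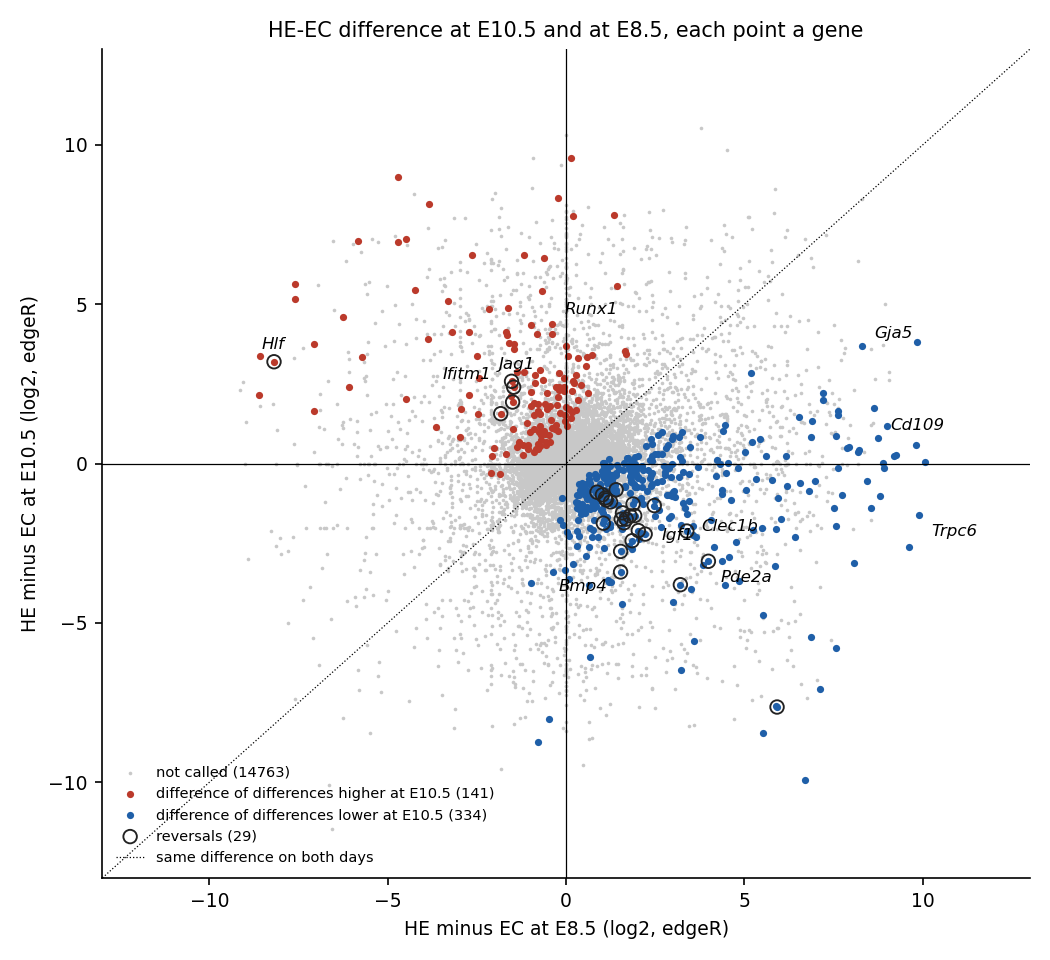
Each point is 1 of 15238 genes, placed by its HE minus EC log2 difference at E8.5 (horizontal axis) and at E10.5 (vertical axis). Red and blue points are the 141 and 334 genes whose difference was higher or lower at E10.5, rings mark the 29 reversals, and the dotted line is an equal difference on both days. Of the 334 blue points, 263 lie right of 0 on the E8.5 axis and below 0 on the E10.5 axis.

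A gene counted as a reversal when it was called in the difference of differences and also on each day, in opposite directions. There were 5 reversals from lower to higher in HE, 0.0328% of genes tested, and 24 from higher to lower in HE, 0.158%. Without any test, the HE libraries lay wholly on opposite sides of the EC libraries on the 2 days in 28 of the 29, Rap2a being the exception, against 186 of all genes tested (1.22%). These genes were chosen by the same values, so this is a description. The 5 became 3 without E10.5 EC replicate 2 or 3 and 8 without E8.5 HE replicate 1 or 2. The 24 became 13 to 15 without any 1 of E10.5 HE replicate 2, E10.5 HE replicate 3, E10.5 EC replicate 3, E8.5 HE replicate 3 and E8.5 EC replicate 1. All 29 stayed called in the difference of differences when any 1 of the 13 libraries was left out. The full reversal, which needs 3 calls, held in each of those 13 runs for 6 genes, among them Jag1, Clec1b, Igf1, Pde2a and Dhrs3, and each of the other 23 lost a within-day call without at least 1 library.

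The promoters of 4 reversals are shown as examples of each direction, Jag1 and Hlf of those that became higher in HE and Pde2a and Igf1 of those that became lower. The sequences are from RefSeq on GRCm38.p6 and run from 250 bases before to 50 bases after the start and read 5′ to 3′ on the gene's strand. Of the 20 named reversals 19 had an entry. Capitals mark matches on either strand to short motifs of the RBPJ, ETS, RUNX and GATA factors, whose letters follow the sequences.
Jag1, chr2:137116471-137116770, minus strand: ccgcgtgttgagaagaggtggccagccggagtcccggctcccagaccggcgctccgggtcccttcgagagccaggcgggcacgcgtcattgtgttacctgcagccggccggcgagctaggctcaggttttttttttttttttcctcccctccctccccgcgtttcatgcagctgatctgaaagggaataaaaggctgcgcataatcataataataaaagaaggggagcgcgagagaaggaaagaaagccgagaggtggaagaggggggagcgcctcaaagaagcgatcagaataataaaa
Hlf, chr11:90390868-90391167, minus strand: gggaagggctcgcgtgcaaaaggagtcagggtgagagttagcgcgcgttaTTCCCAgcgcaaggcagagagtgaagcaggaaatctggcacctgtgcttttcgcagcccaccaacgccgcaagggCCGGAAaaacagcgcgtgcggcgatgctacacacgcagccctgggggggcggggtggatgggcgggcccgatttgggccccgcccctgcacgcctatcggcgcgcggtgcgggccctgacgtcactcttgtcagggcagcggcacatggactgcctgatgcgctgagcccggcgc
Pde2a, chr7:101421441-101421740, plus strand: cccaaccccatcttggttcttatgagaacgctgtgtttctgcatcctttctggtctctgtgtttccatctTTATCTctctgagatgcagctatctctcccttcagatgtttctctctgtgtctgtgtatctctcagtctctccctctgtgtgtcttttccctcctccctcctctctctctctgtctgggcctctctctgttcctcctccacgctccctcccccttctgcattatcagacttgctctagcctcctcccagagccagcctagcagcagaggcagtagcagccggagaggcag
Igf1, chr10:87860861-87861160, plus strand: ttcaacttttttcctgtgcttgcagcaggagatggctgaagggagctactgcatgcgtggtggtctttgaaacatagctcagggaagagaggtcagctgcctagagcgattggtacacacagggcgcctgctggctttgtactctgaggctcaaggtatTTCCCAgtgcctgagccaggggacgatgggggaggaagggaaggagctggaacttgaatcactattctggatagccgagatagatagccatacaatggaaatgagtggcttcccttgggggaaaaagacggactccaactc
The Hlf window held 1 RBPJ and 1 ETS match, the Igf1 window 1 RBPJ match, the Pde2a window 1 GATA match, and the Jag1 window none of the 4 motifs. Among the named reversals with an entry, the RBPJ motif TGGGAA, on either strand, stood in 2 of 5 promoters of those that became higher in HE and 2 of 14 of those that became lower, against 25.5% of 27025 promoters. The RUNX motif TGTGGT stood in 1 of 5 and 1 of 14 of them, against 16.9% of all promoters. The GATA motif AGATAA stood in 0 of 5 and 2 of 14, where all promoters had it in 11.4%. For the ETS motif CCGGAA the counts were 1 of 5 and 1 of 14, and the share of all promoters was 15.2%. None of the 4 motifs overlaps another in the printed windows. These are matches of letters and not sites.

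Jag1 reversed to higher in HE. Jag1 (chromosome 2, 136907187 to 136942256, mm9), the Notch ligand needed for blood stem cells to form in the aorta, had 1375, 1236 and 862 CPM in the E10.5 HE libraries and 161, 266 and 153 CPM in the E10.5 EC libraries, against 165, 114, 182 and 229.6 CPM in the E8.5 HE libraries and 392, 357 and 745 CPM in the E8.5 EC libraries. All E10.5 HE libraries lay above all E10.5 EC libraries, and all E8.5 HE libraries lay below all E8.5 EC libraries. The difference of differences was 4.11 ± 0.46 log2 ± SE (edgeR adjusted p = 2.3e-06), made of 2.58 at E10.5 (adjusted p = 3.3e-05) and -1.53 at E8.5 (adjusted p = 0.0018). Between the days Jag1 rose in HE by 2.75 and fell in EC by 1.36 (edgeR adjusted p = 8.6e-07 and 0.0034). Leaving out single libraries kept the value between 3.70 and 4.41.

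Hlf and Itga4, both known from blood stem and progenitor cells, reversed the same way. Hlf (chromosome 11, 90197849 to 90252231), a transcription factor of hematopoietic stem cells, had 17.1, 9.93 and 20.4 CPM in E10.5 HE and 3.52, 0.574 and 1 CPM in E10.5 EC. At E8.5 it had no count in the 4 HE libraries, against 3.42, 1.06 and 0.125 CPM in the EC libraries. With 0 against 114 counts, 85 of them in E8.5 EC replicate 1, Hlf was at least 54.6-fold lower in HE at E8.5, taking 3 counts over the HE group as the floor. The difference of differences was called (edgeR adjusted p = 0.00032), but its fitted size depends on how the zeros are treated and is no measure of the change. The reversal was not kept without E10.5 HE replicate 1 or 3 or E10.5 EC replicate 2 or 3. Nor was it kept in a fit of only the 13 libraries, with or without a replicate block. Itga4 (chromosome 2, 79095583 to 79173271), the alpha 4 integrin by which progenitors bind VCAM1 and fibronectin, had 32, 48.3 and 33.9 CPM in the E10.5 HE libraries and 10.7, 15 and 12.9 CPM in the E10.5 EC libraries, against 9.51, 8.03, 3.28 and 6.67 CPM in the E8.5 HE libraries and 12.8, 21.9 and 39 CPM in the E8.5 EC libraries. HE lay above EC at E10.5 and below EC at E8.5, with no overlap on either day, and the difference of differences was 3.40 ± 0.52 (edgeR adjusted p = 0.00018). Itga4 shares 166 bases of exon with Cerkl on the other strand, and no strand setting of the counting is known, so reads of the overlap cannot be told apart. The reversal of Itga4 was not kept without E10.5 HE replicate 2 or E10.5 EC replicate 1 or 3. It was also lost in both fits of only the 13 libraries, with and without a replicate block.

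Coro1a and Ifitm1 completed the 5. Coro1a, an actin regulator of leukocytes, had 12.9, 9.93 and 14.7 CPM in E10.5 HE against 3.27, 2.5 and 4.07 CPM in E10.5 EC. In E8.5 HE, Coro1a had 2.87, 9.03, 3 and 2.64 CPM, against 11.2, 14.8 and 11.3 CPM in E8.5 EC. HE and EC did not overlap on either day, E8.5 HE replicate 2 being closest to EC, and the difference of differences was 3.43 ± 0.57 (edgeR adjusted p = 0.00045). Ifitm1, an interferon-induced membrane protein gene also expressed in early germ cells and mesoderm, had 21.4, 28.9 and 17.7 CPM in E10.5 HE against 3.87, 5.64 and 3.42 CPM in E10.5 EC. In E8.5 HE, Ifitm1 had 100.2, 122, 42.6 and 72.9 CPM, against 262, 268 and 171 CPM in E8.5 EC. Its level at E10.5 was below that at E8.5 in both cell types. It fell by 1.90 log2 in HE and fell by 5.76 in EC (edgeR adjusted p = 0.0016 and 7.4e-09), which left HE above EC at E10.5, and the difference of differences was 3.87 ± 0.58 (edgeR adjusted p = 0.00013). Ifitm genes are near copies of each other and reads between them can be split in unknown ways, so its values are uncertain. Ifitm1 also belongs to the germ cell markers whose sum was lower in E8.5 HE than in E8.5 EC, and is itself the largest part of that sum in E8.5 EC. The reversal of Coro1a was not kept without E8.5 HE replicate 3 or 4, E8.5 EC replicate 2 or E10.5 EC replicate 2. That of Ifitm1 was not kept without E8.5 HE replicate 3 or E8.5 EC replicate 1 or 2. In fits of only the 13 libraries, with or without a replicate block, Ifitm1 stayed a reversal and Coro1a did not.

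Clec1b, Igf1 and Pde2a had the smallest p among the 24 genes that reversed to lower in HE. Clec1b (chromosome 6, 129347315 to 129355431), which encodes the receptor CLEC-2 known from platelets, had 43, 20.5 and 16 CPM in the E10.5 HE libraries and 123, 128 and 94.3 CPM in the E10.5 EC libraries, against 99.7, 151, 135 and 147 CPM in the E8.5 HE libraries and 9.59, 13.4 and 15.3 CPM in the E8.5 EC libraries. E10.5 HE and E8.5 EC were the low groups, and E10.5 EC and E8.5 HE the high ones. The difference of differences was -5.50 ± 0.58 log2 ± SE (edgeR adjusted p = 1.5e-06), made of -2.12 at E10.5 and 3.38 at E8.5 (adjusted p = 0.0019 and 4.4e-06). Igf1 (chromosome 10, 87321801 to 87399792), the insulin-like growth factor, had 209.6, 97.7 and 161 CPM in the E10.5 HE libraries and 834, 636 and 700.5 CPM in the E10.5 EC libraries, against 354, 315, 765 and 509 CPM in the E8.5 HE libraries and 85.4, 78.3 and 149.8 CPM in the E8.5 EC libraries. The same pair of groups was high, and the difference of differences was -4.43 ± 0.47 (edgeR adjusted p = 1.5e-06), with -2.21 at E10.5 and 2.22 at E8.5. Igf1 fell in HE by 1.64 and rose in EC by 2.79 (edgeR adjusted p = 0.00074 and 2.1e-06).

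Pde2a had the largest difference of differences among the 15 named reversals to lower in HE. Pde2a (chromosome 7, 108570205 to 108661343), a phosphodiesterase that breaks down cyclic nucleotides in endothelium, had 9.36, 4.08 and 11.6 CPM in the E10.5 HE libraries and 61.1, 79 and 70 CPM in the E10.5 EC libraries, against 13.5, 35.8, 41.9 and 19.4 CPM in the E8.5 HE libraries and 1.09, 3.49 and 0.501 CPM in the E8.5 EC libraries. It was lowest in E8.5 EC and highest in E10.5 EC, with the HE groups between them. The difference of differences was -7.06 ± 0.75 (edgeR adjusted p = 1.5e-06), and the change between the days was -1.73 within HE (adjusted p = 0.013) and 5.33 within EC (adjusted p = 3e-07). Bmp4 (chromosome 14, 47003196 to 47010274), the morphogen that patterns mesoderm and acts on the aorta from its ventral side, had 9.04, 11.9 and 4.12 CPM in the E10.5 HE libraries and 102, 62.2 and 101 CPM in the E10.5 EC libraries, against 17.9, 20, 50.3 and 23.9 CPM in the E8.5 HE libraries and 8.9, 11.1 and 9.15 CPM in the E8.5 EC libraries. HE lay below EC at E10.5 and above EC at E8.5, E8.5 HE replicate 3 standing highest in its group, and the difference of differences was -4.93 ± 0.68 (edgeR adjusted p = 4.6e-05). The E8.5 difference of Bmp4, 1.53 (adjusted p = 0.037), was not called without E8.5 HE replicate 3 or any 1 of the E8.5 EC libraries. Bmp4 shares 86 bases of exon with Gm15217 on the other strand and is one of the allantois markers, whose sum was lower in E8.5 HE than in E8.5 EC.

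**Figure D2:**
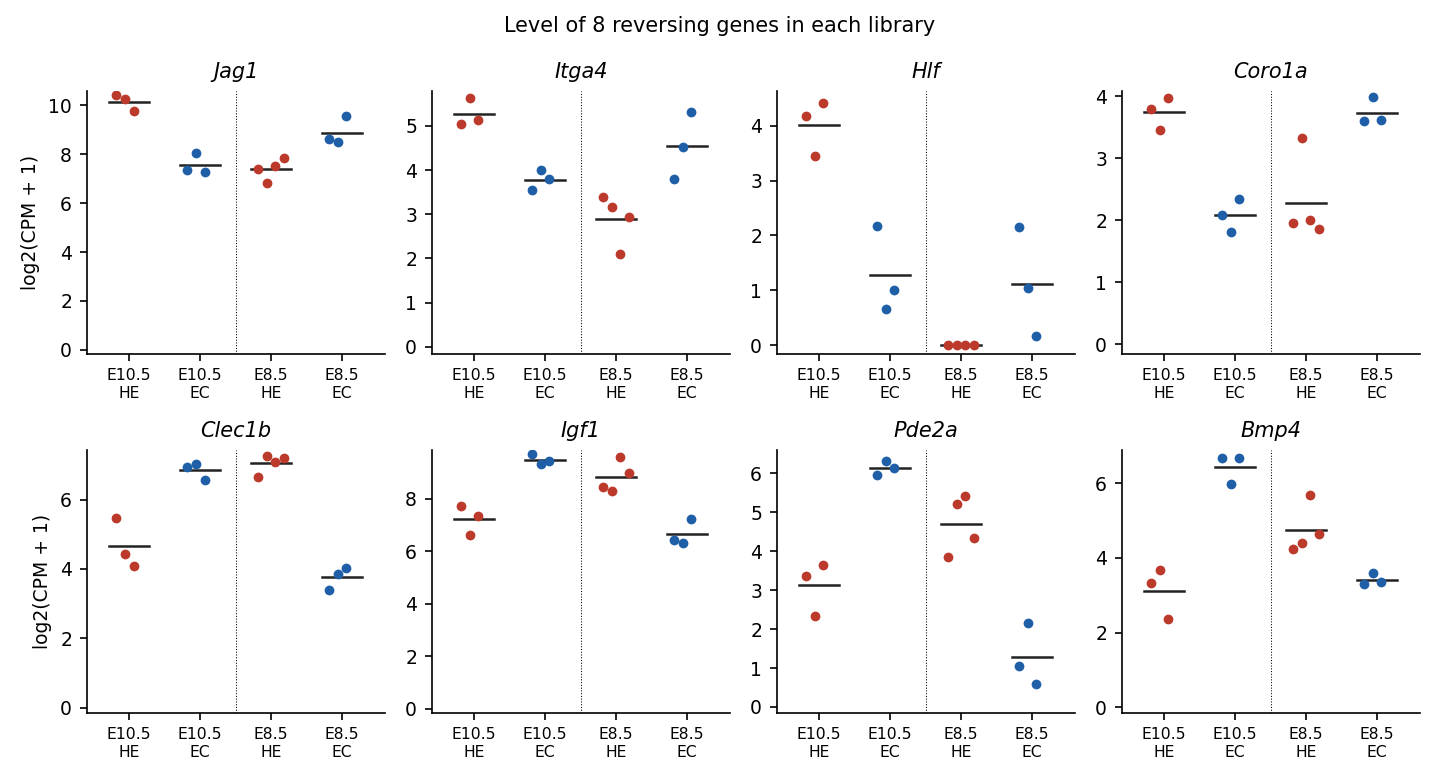
Level of 8 reversing genes as log2(CPM + 1) in each library (points) with the mean of each group (lines), for E10.5 HE, E10.5 EC, E8.5 HE and E8.5 EC. In the upper row the HE points (red) lie above the EC points (blue) at E10.5 and below them at E8.5, and in the lower row the order is the opposite on both days.

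Dhrs3 and St8sia1 reversed to lower in HE as well. Dhrs3, a retinal reductase that lowers retinoic acid, had 42.5, 44.5 and 67.4 CPM in E10.5 HE against 141, 198 and 140.4 CPM in E10.5 EC. In E8.5 HE, Dhrs3 had 143, 73.5, 71.9 and 93 CPM, against 20.2, 18.4 and 36.8 CPM in E8.5 EC. Its difference of differences was -3.56 ± 0.45 (edgeR adjusted p = 1.5e-05), with no overlap between HE and EC on either day. St8sia1, the sialyltransferase that makes the ganglioside GD3, had 7.49, 1.87 and 3.9 CPM in E10.5 HE against 24.7, 33.6 and 31.8 CPM in E10.5 EC. In E8.5 HE, St8sia1 had 22.3, 21.1, 15.9 and 22.3 CPM, against 5.76, 6.63 and 8.84 CPM in E8.5 EC. Its difference of differences was -4.29 ± 0.58 (edgeR adjusted p = 4.3e-05). It shares 149 bases of exon with Gm7457 on the other strand, and its E8.5 difference was not called without E8.5 EC replicate 1 or 2.

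Of the other named reversals to lower in HE, most had their larger change in EC. Arhgap18, a GTPase-activating protein gene, had 61.2, 94.5 and 67.7 CPM in E10.5 HE against 163, 216 and 178 CPM in E10.5 EC. In E8.5 HE, Arhgap18 had 95, 89.4, 136 and 111 CPM, against 10.9, 10.52 and 37.2 CPM in E8.5 EC, which gave a difference of differences of -3.79 ± 0.46 (edgeR adjusted p = 7.7e-06). Its change within HE was not called (-0.53, adjusted p = 0.23), and its rise within EC was 3.26 (adjusted p = 1.7e-07). Lpar1, a receptor for lysophosphatidic acid, had a difference of differences of -3.13 ± 0.51, and Pcdh7, a protocadherin, of -3.15 ± 0.50 (edgeR adjusted p = 0.00033 and 0.00029). For Hapln1, which links hyaluronan to proteoglycans, it was -2.18 ± 0.36, and for the small GTPase gene Rap2a -2.27 ± 0.38 (edgeR adjusted p = 0.00042 and 0.00052). The full reversal of Lpar1, Pcdh7, Hapln1 and Rap2a held in 10, 6, 11 and 6 of the 13 runs without 1 library. In Hapln1, Gmfg and Prtg the larger change lay in HE. Gmfg, an actin debranching factor of blood and endothelial cells, fell in HE by 2.07 (edgeR adjusted p = 6.4e-06), while its change in EC was not called (0.37, adjusted p = 0.33). Hapln1 fell in HE by 1.74 (edgeR adjusted p = 2.7e-05) against a change of 0.44 in EC (adjusted p = 0.22). Prtg, an immunoglobulin-family receptor of early embryos, fell in both, and fell by 4.16 in HE and fell by 1.25 in EC (edgeR adjusted p = 1.7e-08 and 0.006), and its level was 47.3, 13.1 and 24.8 CPM in E10.5 HE against 119.6, 81.6 and 111 CPM in E10.5 EC. In E8.5 HE, Prtg had 436, 482, 502 and 614 CPM, against 234, 304 and 202 CPM in E8.5 EC. Ostf1, an SH3-domain protein gene, rose in both, by 0.90 in HE and 3.13 in EC (edgeR adjusted p = 0.002 and 4.8e-10).

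The remaining 9 reversals to lower in HE are named here after their values were seen. Piezo2, a mechanically gated ion channel, had 13.1, 20.6 and 21.1 CPM in E10.5 HE against 58.8, 132 and 103 CPM in E10.5 EC. In E8.5 HE, Piezo2 had 7.07, 6.64, 16.3 and 13.8 CPM, against 3.06, 2.24 and 3.82 CPM in E8.5 EC, and its difference of differences was -4.27 ± 0.73 (edgeR adjusted p = 0.00057). Ptgs1, the cyclooxygenase COX-1, had 9.62, 6.98 and 2.59 CPM in E10.5 HE against 27.1, 23.3 and 32.2 CPM in E10.5 EC. In E8.5 HE, Ptgs1 had 4.54, 2.3, 6.18 and 3.63 CPM, against 1.49, 1.41 and 0 CPM in E8.5 EC (-4.13 ± 0.78, edgeR adjusted p = 0.0019). Tcf4, an E protein that pairs with other helix-loop-helix factors, had 105, 128 and 118 CPM in E10.5 HE against 197, 232 and 223 CPM in E10.5 EC. In E8.5 HE, Tcf4 had 93.8, 112, 181 and 138 CPM, against 65.4, 59 and 91.2 CPM in E8.5 EC (-1.76 ± 0.33, edgeR adjusted p = 0.0015). In all 3 genes E10.5 EC was the highest group and HE did not overlap EC on either day. The others were Dock4, Kank3 and the polysialyltransferase gene St8sia4, at -3.44, -2.0 and -3.43 (edgeR adjusted p = 0.0019, 0.0019 and 0.0023), and Egfem1, BC049762 and 1700025G04Rik. Egfem1 had 1 count in E10.5 HE against 243 in E10.5 EC, a ratio of 0.00362 (95% counting interval 9.12e-05 to 0.0203). At E8.5 it had 123 counts in HE against 1 in EC, a ratio of 85.6 (15.1 to 3410). Of the 13 runs without 1 library, the full reversal held in 9 for Piezo2, 8 for Egfem1, 7 for Ptgs1 and 5 for Tcf4. It held in 6 for Kank3 and for BC049762, in 4 for St8sia4, and in 2 for Dock4 and for 1700025G04Rik.

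E9.5, whose 6 HE and EC libraries are not part of the contrast, shows where the reversing genes stood on the day between. Their E9.5 difference had a median of 1.51 log2 for the 5 reversals to higher (-0.35 to 1.98) and of -0.26 for the 24 to lower in HE (-1.09 to 0.34). Jag1 was the only reversal already called at E9.5, with 437, 354 and 419 CPM in E9.5 HE and 133, 137 and 153 CPM in E9.5 EC (1.51 ± 0.33, edgeR adjusted p = 0.035). Bmp4 had the lowest of the 24 estimates, with 13.2, 14.9 and 24 CPM in E9.5 HE, all below the 48.9, 26.9 and 35.4 CPM in E9.5 EC (-1.09 ± 0.47, edgeR adjusted p = 0.66). Igf1 had 306, 368 and 259 CPM in E9.5 HE against 446, 403 and 233 CPM in E9.5 EC (-0.21 ± 0.33, edgeR adjusted p = 1), and Clec1b 60.3, 124 and 107 CPM in E9.5 HE against 102, 137 and 127 CPM in E9.5 EC (-0.33 ± 0.39, edgeR adjusted p = 1). Over all genes E9.5 had 50 called differences, all higher in HE (0.328%), so a gene not called there is not shown to be equal.

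**Figure D3:**
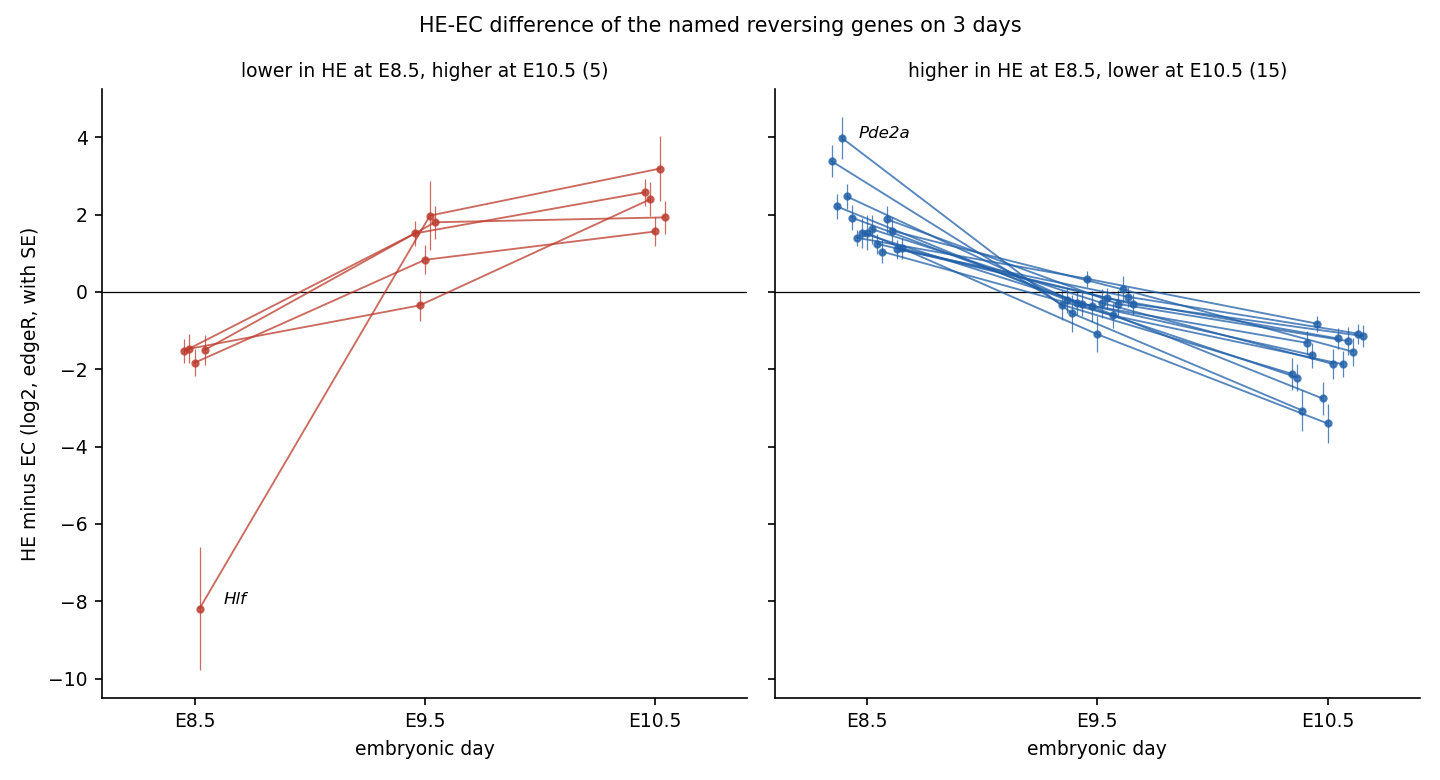
HE minus EC difference (log2 ± SE) on E8.5, E9.5 and E10.5 for the 5 reversals to higher in HE (left) and the 15 named reversals to lower in HE (right), 1 line per gene. The E9.5 values lie between those of the other days in all 20 genes, a place that the choice of genes with opposite signs on the other days favours, with Hlf, at 0 counts in E8.5 HE, as the lowest point.

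The difference of differences can also be read as the change within HE minus the change within EC. These changes use the same libraries and are given side by side. Among the 24 reversals to lower in HE, HE fell in 15, rose in 1 (Ostf1) and was not called in 8, while EC rose in 20, fell in 1 (Prtg) and was not called in 3. The change was smaller in HE than in EC in 18 of the 24, and the median change was -1.13 log2 in HE and 2.26 in EC. Among the 5 reversals to higher in HE, HE rose in 4 and fell in Ifitm1, and EC fell in 3. Over all 334 genes with a lower difference at E10.5, HE was not called in 199, EC rose in 274, and the change was smaller in HE than in EC in 266. In the background, 8.25% of tested genes rose and 8.66% fell in HE, and 12% rose and 12.3% fell in EC. Over the 141 genes with a higher difference, HE rose in 78 and EC fell in 79.

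**Figure D4:**
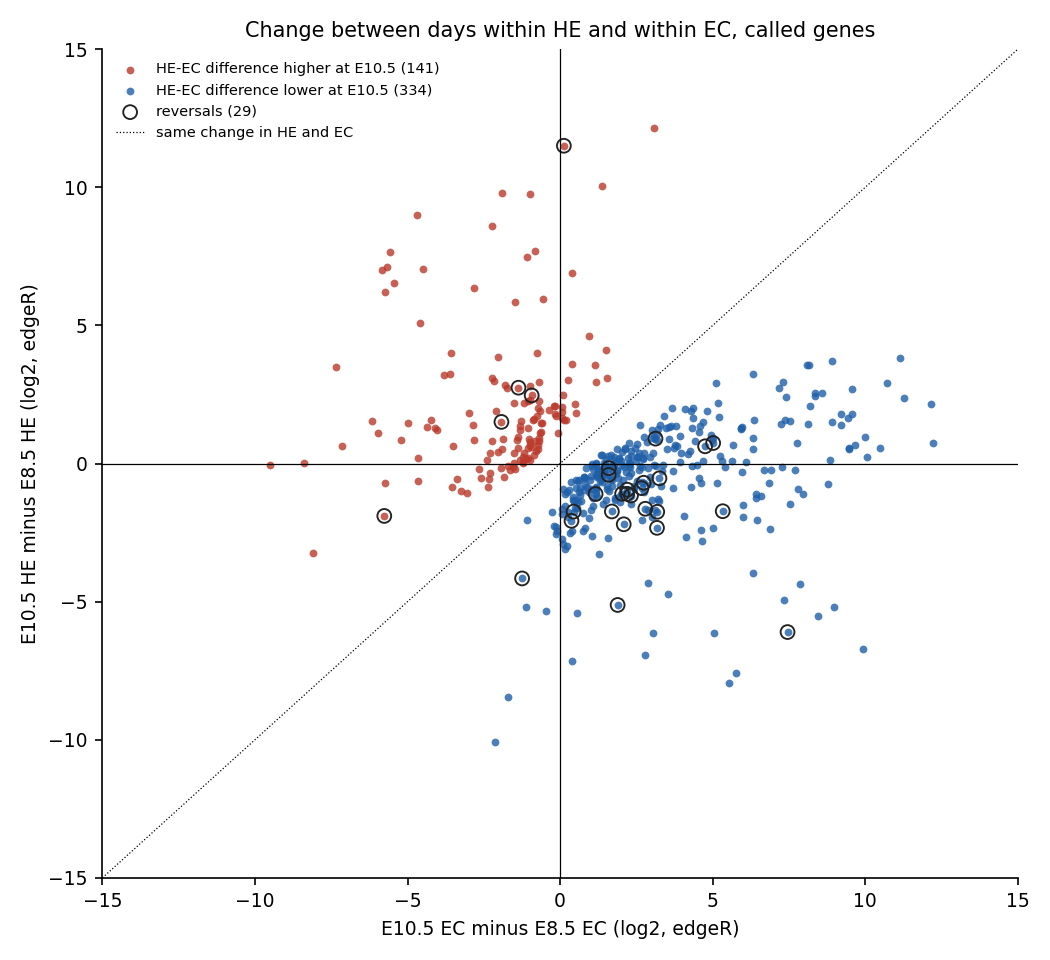
Change from E8.5 to E10.5 within EC (horizontal axis, log2) and within HE (vertical axis, log2) for the 475 called genes, with the 29 reversals ringed. Blue points (334) run along the right, where EC rose, and red points (141) spread over genes that rose in HE, fell in EC, or both; points off the dotted line changed unequally.

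Some genes had differences of at least 1 log2 and opposite signs on the 2 days without being called on both. Among those that became higher in HE, Dkk1, a secreted Wnt inhibitor, had 4.68, 3.34 and 4.04 CPM in E10.5 HE against 1.2, 3.18 and 1.05 CPM in E10.5 EC. In E8.5 HE, Dkk1 had 0.971, 1.23, 1.85 and 0.492 CPM, against 12.8, 13.8 and 16.6 CPM in E8.5 EC (4.81 ± 0.98, edgeR adjusted p = 0.0037). Lgals3bp, a galectin-binding glycoprotein gene, had 7.74, 18.1 and 11.8 CPM in E10.5 HE against 4.43, 3.34 and 0.603 CPM in E10.5 EC. In E8.5 HE, Lgals3bp had 19.6, 11.5, 0.951 and 11.4 CPM, against 97.6, 59.8 and 56.9 CPM in E8.5 EC (4.87 ± 0.87, edgeR adjusted p = 0.00093). In both, the high group was E8.5 EC. Bmper, a secreted regulator of BMP signalling, had 12.1, 13.6 and 17.4 CPM in E10.5 HE and 0.043, 0.365 and 0.0503 CPM in E10.5 EC, and at most 2.13 CPM in any E8.5 library (edgeR adjusted p = 0.0071 for the difference of differences). Has2, the hyaluronan synthase of the embryonic cardiovascular system, had 6.27, 11.4 and 9.35 CPM in E10.5 HE against 0.301, 1.2 and 0.452 CPM in E10.5 EC. In E8.5 HE, Has2 had 2.72, 6.38, 2.33 and 3.36 CPM, against 13.6, 14.6 and 5.64 CPM in E8.5 EC (5.39 ± 1.13, edgeR adjusted p = 0.0049). The gene shares 182 bases of exon with its antisense gene Has2os. Cited1, a transcriptional co-regulator listed among the mesonephric markers, was high only in E8.5 EC of the 4 groups, with 2.09, 3.69 and 2.77 CPM in E10.5 HE against 0, 0.209 and 0.352 CPM in E10.5 EC. In E8.5 HE, Cited1 had 1.09, 3.5, 1.76 and 0.94 CPM, against 23.2, 32.2 and 24.6 CPM in E8.5 EC (edgeR adjusted p = 0.005).

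In the other direction E8.5 EC was the low group for Trpc6, Kcnj2, Apold1 and Abcg1. Trpc6, a cation channel, had 5.33, 8.7 and 11.6 CPM in E10.5 HE, 21.6, 34.8 and 22 CPM in E10.5 EC and 2.6, 5.22, 4.28 and 8.55 CPM in E8.5 HE, and no count in the 3 E8.5 EC libraries. At E8.5 it was at least 112-fold higher in HE, with 484 counts against a floor of 3 over the EC group, and the difference of differences was called (edgeR adjusted p = 1.5e-06). Kcnj2, the inward rectifier potassium channel that senses flow in endothelium, had 4.5, 1.67 and 1.49 CPM in E10.5 HE against 8.73, 9.19 and 14.1 CPM in E10.5 EC. In E8.5 HE, Kcnj2 had 3.15, 10.1, 7.23 and 19.2 CPM, against 0.0806, 0.275 and 0.125 CPM in E8.5 EC (-7.94 ± 1.12, edgeR adjusted p = 7e-05). Apold1, an endothelial early response gene, had 32.8, 11.5 and 40.8 CPM in E10.5 HE against 95.4, 74.8 and 119.6 CPM in E10.5 EC. In E8.5 HE, Apold1 had 7.26, 3.27, 5.13 and 3.81 CPM, against 0.0403, 0.707 and 0.0627 CPM in E8.5 EC (-5.82 ± 0.87, edgeR adjusted p = 0.00013). Both were near 0 in E8.5 EC and rose in EC by E10.5, by 5.99 and 8.36 (edgeR adjusted p = 2.5e-05 and 1.7e-08). Abcg1, a cholesterol exporter, had 66.3, 65.8 and 52.3 CPM in E10.5 HE against 144, 152 and 106 CPM in E10.5 EC. In E8.5 HE, Abcg1 had 101, 53.7, 139 and 140.5 CPM, against 21.2, 16.1 and 38.2 CPM in E8.5 EC (-3.23 ± 0.59, edgeR adjusted p = 0.0012). Car2, a carbonic anhydrase known from red cells, had 6.27, 12 and 7.46 CPM in E10.5 HE against 19.4, 37.6 and 13.2 CPM in E10.5 EC. In E8.5 HE, Car2 had 419.6, 308, 211 and 303 CPM, against 52.7, 48.1 and 52.1 CPM in E8.5 EC, so that E8.5 HE alone was high, and its difference of differences was -4.06 ± 0.73 (edgeR adjusted p = 0.0011). Tspan15, Npl and Dapk2 were also low in E8.5 EC, with differences of differences of -4.10 ± 0.48, -4.71 ± 0.61 and -7.02 ± 0.96 (edgeR adjusted p = 4.4e-06, 2.2e-05 and 4.6e-05).

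Runx1 led the 72 genes that differed at E10.5 only and were higher in HE there. Its difference of differences was 4.78 ± 0.50 (edgeR adjusted p = 1.5e-06), and the levels given above show E10.5 HE as the single high group. Nupr1, a stress-response cofactor, had 54.1, 84 and 56.1 CPM in E10.5 HE against 0.129, 0.104 and 0.653 CPM in E10.5 EC. In E8.5 HE, Nupr1 had 2.91, 6.41, 4.37 and 2.33 CPM, against 6.45, 0.903 and 3.26 CPM in E8.5 EC (7.59 ± 0.83, edgeR adjusted p = 1.8e-06). Cd44, the hyaluronan receptor, had 189, 252 and 252 CPM in E10.5 HE against 21.9, 24.5 and 20.1 CPM in E10.5 EC. In E8.5 HE, Cd44 had 27.9, 30.5, 81.5 and 50.9 CPM, against 40.2, 35.3 and 63 CPM in E8.5 EC (3.34 ± 0.41, edgeR adjusted p = 9.7e-06). In these 3 genes HE rose, and Nupr1 and Cd44 also fell in EC. Gcnt2, a glycosyltransferase gene, followed with 3.38 ± 0.43 (edgeR adjusted p = 1.5e-05). Fn1, fibronectin, behaved otherwise, with 1363, 1961 and 1805 CPM in E10.5 HE against 206, 453 and 320.5 CPM in E10.5 EC. In E8.5 HE, Fn1 had 1210.0, 1479, 1294 and 1312 CPM, against 1533, 1509 and 1819 CPM in E8.5 EC (2.68 ± 0.34, edgeR adjusted p = 1.5e-05). Its change in HE was not called (0.37, adjusted p = 0.28), and its level fell by 2.31 in EC (adjusted p = 3.7e-07).

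The 63 genes lower in HE at E10.5 only included the G protein subunit gene Gng2, the protease inhibitor gene Ctla2a and the nucleosome-binding protein gene Hmgn5. Their differences of differences were -2.54 ± 0.36, -3.20 ± 0.46 and -1.93 ± 0.31 (edgeR adjusted p = 7.9e-05, 9e-05 and 0.00032). Ctla2a had 42, 37.2 and 49.1 CPM in E10.5 HE against 146, 99.1 and 393 CPM in E10.5 EC. In E8.5 HE, Ctla2a had 248, 229.6, 218 and 232 CPM, against 104, 86.6 and 186 CPM in E8.5 EC. E10.5 EC replicate 3 stood highest for Ctla2a. Samsn1, an adaptor of lymphocytes, and the RNA-binding protein gene Carhsp1 had changes in HE of -3.08 and -1.64 (edgeR adjusted p = 4.3e-06 and 3.6e-06), while their changes in EC were not called (0.17 and 0.06, adjusted p = 0.78 and 0.87).

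Cd109 had the smallest p of all genes and belonged to the 201 that were higher in HE at E8.5 only. This GPI-anchored surface protein gene, known as a TGF-beta co-receptor, had 67.7, 77 and 109 CPM in the E10.5 HE libraries and 38.2, 47.6 and 60.4 CPM in the E10.5 EC libraries, against 47.9, 57.8, 197 and 97.5 CPM in the E8.5 HE libraries and 0.322, 0.118 and 0.251 CPM in the E8.5 EC libraries. It was nearly absent from E8.5 EC alone, and the difference of differences was -7.95 ± 0.65 (edgeR adjusted p = 2.6e-08). Sema6d, a semaphorin, had 62.3, 94.5 and 80.6 CPM in E10.5 HE against 70.6, 120.4 and 124 CPM in E10.5 EC. In E8.5 HE, Sema6d had 33.1, 53.5, 144 and 69.5 CPM, against 5.12, 3.02 and 4.14 CPM in E8.5 EC (-4.60 ± 0.52, edgeR adjusted p = 2.7e-06). Lyn, a Src-family kinase of blood cells, had 80, 68.4 and 70.5 CPM in E10.5 HE against 130.1, 89 and 100.1 CPM in E10.5 EC. In E8.5 HE, Lyn had 63.7, 60.6, 98.5 and 85.7 CPM, against 6.33, 11.2 and 18.8 CPM in E8.5 EC (-3.22 ± 0.37, edgeR adjusted p = 3.2e-06). In all 3, EC rose between the days and the change in HE was not called. Of the 34 genes lower in HE at E8.5 only, Amot, an angiostatin-binding scaffold of the Hippo pathway, had 35.7, 37.9 and 42 CPM in E10.5 HE against 22, 25.6 and 24.8 CPM in E10.5 EC. In E8.5 HE, Amot had 71.7, 75.8, 92.2 and 82.6 CPM, against 179.5, 215 and 211 CPM in E8.5 EC (2.00 ± 0.35, edgeR adjusted p = 0.00072), and the DNA methyltransferase gene Dnmt3a had 206, 184 and 182 CPM in E10.5 HE against 193, 142 and 140.0 CPM in E10.5 EC. In E8.5 HE, Dnmt3a had 214, 174, 113 and 191 CPM, against 368, 397 and 425 CPM in E8.5 EC (1.47 ± 0.28, edgeR adjusted p = 0.002). E8.5 EC was the high group for both.

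The called genes were then set against lists of genes by function. All medians are of the difference of differences, in log2, and the median over all tested genes was -0.018, with 0.925% of genes called higher and 2.19% lower. Of 20 arterial genes 4 rose in difference (Jag1, Hey2, Gja4 and Cd44) and 1 fell (Gja5), and the list's median was 0.19. On each day alone most of the list was higher in HE, 16 of 20 at E10.5 and 13 of 20 at E8.5. Gja4, connexin 37, had 1607, 1451 and 1860.0 CPM in E10.5 HE against 153, 226 and 122 CPM in E10.5 EC. In E8.5 HE, Gja4 had 354, 253, 482 and 288 CPM, against 277, 290.2 and 249 CPM in E8.5 EC (2.96 ± 0.48, edgeR adjusted p = 0.00032), and overlapped between HE and EC at E8.5. Hey2, a Notch target of arteries, had 98.7, 113 and 106 CPM in E10.5 HE against 2.23, 12.7 and 4.22 CPM in E10.5 EC. In E8.5 HE, Hey2 had 3.96, 22.1, 26.6 and 11.7 CPM, against 11.9, 9.07 and 42.8 CPM in E8.5 EC (4.45 ± 0.92, edgeR adjusted p = 0.0044). Gja5, connexin 40, had 369, 439.6 and 434 CPM in E10.5 HE against 23.6, 54.2 and 19.3 CPM in E10.5 EC. In E8.5 HE, Gja5 had 19.6, 17, 66.8 and 37.8 CPM, against 0.0806, 0.0785 and 0.188 CPM in E8.5 EC. It was higher in HE on both days, by 3.68 at E10.5 and 8.29 at E8.5, and the difference of differences was -4.62 ± 1.00 (edgeR adjusted p = 0.0071), a call not made by limma voom. With 2, 2 and 3 counts in the E8.5 EC libraries, the sizes of the E8.5 difference and of the difference of differences are uncertain. Dll4, Notch1, Hey1, Sox17 and Efnb2 had no called change, at -0.80 ± 0.88, -0.32 ± 0.35, 0.47 ± 0.64, 0.28 ± 0.59 and -0.73 ± 0.65. The value of Dll4, a Notch ligand of arteries, turned on E8.5 EC, where it had 1.29, 1.37 and 23.9 CPM. Without E8.5 EC replicate 3 it was -3.5 and called (edgeR adjusted p = 0.00072), and limma voom called it too (-3.01, adjusted p = 0.023).

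Of 10 venous and lymphatic genes 4 were lower in the difference of differences and none higher, with a list median of -2.99. Emcn, a venous and capillary sialomucin gene, had 637, 516 and 562 CPM in E10.5 HE against 1232, 874 and 1000.0 CPM in E10.5 EC. In E8.5 HE, Emcn had 174, 124, 483 and 324 CPM, against 21.9, 17.9 and 61.4 CPM in E8.5 EC (-3.89 ± 0.59, edgeR adjusted p = 0.00017). HE lay below EC at E10.5 and above it at E8.5, and the E10.5 difference was not called (-0.86, adjusted p = 0.31). Aplnr, the apelin receptor, had 45.2, 8.06 and 14.4 CPM in E10.5 HE against 310.3, 193 and 326 CPM in E10.5 EC. In E8.5 HE, Aplnr had 110.2, 177, 133 and 139.9 CPM, against 119.8, 116 and 161 CPM in E8.5 EC (-3.69 ± 0.72, edgeR adjusted p = 0.0025), and differed at E10.5. Flt4, the VEGF-C receptor, had -1.75 ± 0.37, and Lyve1, a hyaluronan receptor of lymphatic cells, -3.81 ± 0.83 (edgeR adjusted p = 0.0061 and 0.0076). Nr2f2, the COUP-TFII factor that sets venous fate, had 194, 16.1 and 39.8 CPM in E10.5 HE, where replicate 1 stood apart, 921, 569 and 546 CPM in E10.5 EC, 25.2, 57.7, 61.2 and 69.7 CPM in E8.5 HE and 61.2, 64.8 and 141 CPM in E8.5 EC. Its value, -2.29 ± 0.97, was not called (edgeR adjusted p = 0.25), but was without E10.5 HE replicate 1 (-3.86, edgeR adjusted p = 0.013) and by limma voom (-3.37, adjusted p = 0.00044).

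Endothelial tip and sprouting genes were lower in 4 of 18 and higher in 1, with a median of -0.63. Besides Cd109, these were Esm1, Nedd9 and Apln. Esm1, a secreted proteoglycan of tip cells, had 0.828, 26.2 and 7.77 CPM in E10.5 HE against 7.69, 7.67 and 7.94 CPM in E10.5 EC. In E8.5 HE, Esm1 had 24.3, 20.9, 92.3 and 100.4 CPM, against 0.0806, 0.0393 and 0.0627 CPM in E8.5 EC (-9.24 ± 1.53, edgeR adjusted p = 0.00053). Nedd9, a focal adhesion scaffold, had 114, 161 and 146 CPM in E10.5 HE against 36.2, 66.2 and 32.3 CPM in E10.5 EC. In E8.5 HE, Nedd9 had 43.5, 14.6, 92.9 and 40.2 CPM, against 0.604, 0.0393 and 0 CPM in E8.5 EC (-5.99 ± 0.80, edgeR adjusted p = 3.3e-05). Apln, the apelin peptide gene, had 1.22, 0.835 and 6.19 CPM in E10.5 HE against 15.6, 16 and 18.9 CPM in E10.5 EC. In E8.5 HE, Apln had 11.3, 14.8, 17.8 and 24.9 CPM, against 0.0403, 1.06 and 1.88 CPM in E8.5 EC (-6.76 ± 1.39, edgeR adjusted p = 0.0041). E8.5 EC was at or below 1.88 CPM for all 3 genes. Its libraries held 2, 1 and 1 counts of Esm1 and 15, 1 and 0 of Nedd9, so the sizes of their values are uncertain. The gene that went up, Plaur, was called at 1.61 ± 0.45 (edgeR adjusted p = 0.045), a call kept in 4 of the 13 runs without 1 library.

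**Figure D5:**
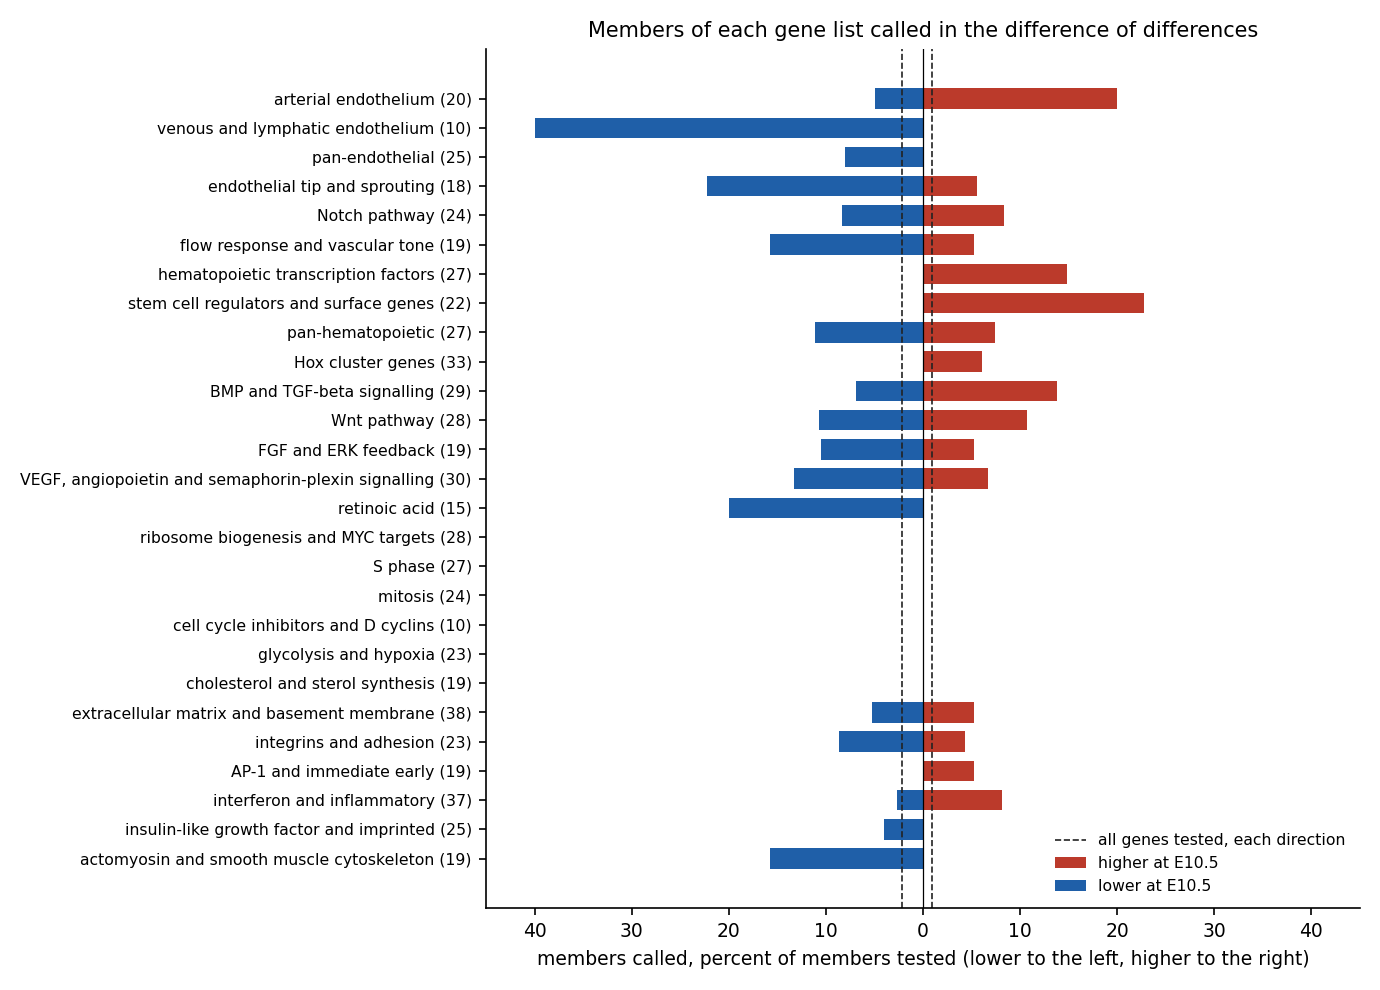
Share of the tested members of each gene list (number tested in parentheses) that were called lower (blue, to the left) or higher (red, to the right) in the difference of differences, with dashed lines at the share of all genes tested, 2.19% lower and 0.925% higher. Arterial, blood factor and stem cell lists reach to the right, venous, sprouting and retinoic acid lists to the left, and the cell cycle, ribosome biogenesis, glycolysis and sterol lists have no bar.

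Hematopoietic transcription factors were higher in the difference of differences in 4 of 27 and lower in none, with a median of 0.95. Ikzf2 and Gata2 joined Runx1. Ikzf2, an Ikaros family factor, had 42.4, 50.5 and 60.8 CPM in E10.5 HE against 3.22, 7.2 and 1.56 CPM in E10.5 EC. In E8.5 HE, Ikzf2 had 13.7, 12.4, 5.18 and 14 CPM, against 13.1, 13.2 and 7.65 CPM in E8.5 EC (3.69 ± 0.57, edgeR adjusted p = 0.00018). Gata2, required for stem cells to form, had 230.3, 226 and 184 CPM in E10.5 HE against 63, 87.5 and 64.7 CPM in E10.5 EC. In E8.5 HE, Gata2 had 93.1, 85.2, 122 and 100.4 CPM, against 103, 123 and 110.1 CPM in E8.5 EC (1.74 ± 0.28, edgeR adjusted p = 0.00031). In both, E10.5 HE was the high group and HE and EC overlapped at E8.5. Gfi1 had 863 counts in E10.5 HE against 2 in E10.5 EC, a ratio of 379 (95% counting interval 105 to 3140), while at E8.5 it had 0, 0.23, 0 and 0 CPM in HE against 0.201, 0 and 0 CPM in EC. Its call (edgeR adjusted p = 0.02) was not kept without E8.5 EC replicate 1, in the fit of only the 13 libraries or with a replicate block.

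Stem cell regulators and surface genes were higher in 5 of 22 and lower in none, with a median of -0.12. Beside Hlf and Nupr1, Procr, the endothelial protein C receptor of stem cells, had 83, 122 and 107 CPM in E10.5 HE against 8.64, 40.5 and 17 CPM in E10.5 EC. In E8.5 HE, Procr had 6.33, 3.03, 17.7 and 7.12 CPM, against 15.5, 10.2 and 24.8 CPM in E8.5 EC (3.21 ± 0.63, edgeR adjusted p = 0.0026). The other calls, Neurl3 and Hoxa9, were kept in 5 and 6 of the 13 runs without 1 library. Mecom, the Evi1 locus, was higher in HE on both days, by 2.19 at E10.5 and 3.56 at E8.5, and its difference of differences was not called (-1.37 ± 0.51, edgeR adjusted p = 0.17), except without E8.5 EC replicate 3 (-1.85, edgeR adjusted p = 0.044) and with a replicate block. Meis1 likewise was higher in HE by 1.56 at E10.5 and 1.73 at E8.5 (-0.17 ± 0.33, edgeR adjusted p = 0.92). Among 27 pan-hematopoietic genes 2 were higher (Cd44 and Coro1a) and 3 lower (Lcp1, Lcp2 and Gimap6), Lcp2 being called in 10 of the 13 runs without 1 library. Lcp1, the actin bundler L-plastin, had 79, 91.1 and 129 CPM in E10.5 HE against 127, 202 and 166 CPM in E10.5 EC. In E8.5 HE, Lcp1 had 81.2, 60.2, 77.6 and 87.3 CPM, against 31.3, 22.9 and 19.4 CPM in E8.5 EC (-2.37 ± 0.33, edgeR adjusted p = 6.3e-05). Gimap6, a GTPase of lymphocytes and endothelium, rose in both cell types, to 253, 222 and 199 CPM in E10.5 HE and 381, 359.8 and 362 CPM in E10.5 EC, against 9.32, 14.6, 38.1 and 33.2 CPM in E8.5 HE and 2.34, 3.92 and 7.52 CPM in E8.5 EC (-3.10 ± 0.53, edgeR adjusted p = 0.00059). Itga2b, the CD41 antigen of first blood progenitors, fell in both, with changes of -2.94 in HE and -3.06 in EC (edgeR adjusted p = 3.6e-05 and 2.5e-05), and its difference of differences was 0.12 ± 0.58.

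Signalling lists split in both directions. In the BMP and TGF-beta list 4 of 29 were higher (Bmper, Id1, Smad6 and Smad7) and 2 lower (Bmp4 and Tgfbr2), with a median of 0.49 (0.39 with groups at 0 counts set to the floor). Id1, a target of BMP signalling, had 146, 107 and 124 CPM in E10.5 HE against 25, 24.2 and 27.1 CPM in E10.5 EC. In E8.5 HE, Id1 had 198, 132, 68.7 and 60.6 CPM, against 185, 154 and 59.4 CPM in E8.5 EC (2.52 ± 0.52, edgeR adjusted p = 0.0043), and fell in EC by 2.39 with no called change in HE. Smad6 and Smad7, the inhibitory Smads, were called at adjusted p of 0.025 and 0.026 (edgeR), calls kept in 7 and 6 of the 13 runs without 1 library. Tgfbr2, the type II TGF-beta receptor, had 52.4, 51.7 and 68.4 CPM in E10.5 HE against 53.4, 80 and 72.6 CPM in E10.5 EC. In E8.5 HE, Tgfbr2 had 23.6, 31.3, 45 and 34.6 CPM, against 7.41, 11.1 and 10.3 CPM in E8.5 EC (-2.06 ± 0.38, edgeR adjusted p = 0.0012). In the Notch list, the ligand Dll1 and the regulator Dtx4 were lower and Jag1 and Hey2 higher, of 24 tested. Dll1 had 2.92, 8.26 and 2.63 CPM in E10.5 HE against 14.5, 22.4 and 8.89 CPM in E10.5 EC. At E8.5 it had 129 counts in HE against 1 in EC, a ratio of 89.8 (95% counting interval 15.8 to 3570).

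Retinoic acid genes were lower in 3 of 15 and higher in none, with a median of -0.80. With Dhrs3 these were Rarb and Cyp26b1. Rarb, a receptor that retinoic acid itself induces, had 8.5, 20.9 and 19.5 CPM in E10.5 HE against 25.5, 29.6 and 32.4 CPM in E10.5 EC. In E8.5 HE, Rarb had 23.1, 14.8, 11 and 11.9 CPM, against 1.53, 0.589 and 0 CPM in E8.5 EC (-5.20 ± 1.05, edgeR adjusted p = 0.0035). Cyp26b1, an enzyme that breaks retinoic acid down, had 72.3, 87.7 and 89.7 CPM in E10.5 HE against 13.2, 34.1 and 39.9 CPM in E10.5 EC. In E8.5 HE, Cyp26b1 had 16, 14.6, 35.6 and 12.8 CPM, against 0.0403, 0 and 0.313 CPM in E8.5 EC (-6.11 ± 0.84, edgeR adjusted p = 4.6e-05). The E8.5 EC libraries held 1, 0 and 5 counts of Cyp26b1, so the size of its value is uncertain. All 3 genes rose in EC between the days, and HE moved in opposite ways, Dhrs3 by -0.89 and Cyp26b1 by 2.08 (edgeR adjusted p = 0.043 and 0.0011). In the FGF and ERK feedback list 2 of 19 were lower and 1, the receptor gene Fgfr1, was higher, a call kept in 1 of the 13 runs without 1 library. Dusp6, the ERK phosphatase, had 423, 369.8 and 378 CPM in E10.5 HE against 452, 255 and 516 CPM in E10.5 EC. In E8.5 HE, Dusp6 had 284, 221, 321 and 319 CPM, against 81, 73.5 and 91.5 CPM in E8.5 EC (-1.87 ± 0.30, edgeR adjusted p = 0.00029), and Spry1, a feedback inhibitor, was lower in HE at E10.5 with 2.59, 0.884 and 1.14 CPM against 23.6, 16.3 and 23 CPM in EC (-2.77 ± 0.59, edgeR adjusted p = 0.0058). The Wnt list was even, with 3 of 28 higher and 3 lower, and the calls of Dkk1 and of the TCF/LEF factor gene Lef1 (-2.90 ± 0.66, edgeR adjusted p = 0.011) were kept in all 13 runs without 1 library, while the other 4 were not.

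Flow response genes were lower in 3 of 19 (Pde2a, Kcnj2 and Npr1) and higher in 1, Ptgis, the prostacyclin synthase gene. The call of Npr1, a natriuretic peptide receptor gene, was kept in 3 of the 13 runs without 1 library. Ptgis had 59, 55.5 and 66.9 CPM in E10.5 HE against 19.1, 14.6 and 9.1 CPM in E10.5 EC. In E8.5 HE, Ptgis had 37.9, 24.7, 35.9 and 33.9 CPM, against 29.3, 46.7 and 39 CPM in E8.5 EC (2.29 ± 0.44, edgeR adjusted p = 0.0019). Integrins and adhesion genes were higher in Itga4 and lower in 2 of 23, Itga6 and Cdh2. Itga6, the laminin-binding alpha 6 subunit, had 146, 142 and 133 CPM in E10.5 HE against 188, 265 and 241 CPM in E10.5 EC. In E8.5 HE, Itga6 had 28.9, 58.3, 136 and 76.7 CPM, against 19.8, 14.4 and 24.3 CPM in E8.5 EC (-2.66 ± 0.45, edgeR adjusted p = 0.00055), and Cdh2, N-cadherin, had a difference of differences of -2.75 ± 0.54 (edgeR adjusted p = 0.0026). Matrix genes were even, 2 of 38 higher (Fn1 and Lama5) and 2 lower (Bgn and Col15a1), with a median of 0.19 (0.34 with groups at 0 counts set to the floor), and the call of Lama5 was kept in 3 of the 13 runs without 1 library. Bgn, the proteoglycan biglycan, had 64.5, 69.5 and 66.6 CPM in E10.5 HE against 203, 126 and 151 CPM in E10.5 EC. In E8.5 HE, Bgn had 68.8, 71.2, 137 and 93.8 CPM, against 10.8, 10.8 and 40.7 CPM in E8.5 EC (-3.43 ± 0.76, edgeR adjusted p = 0.008). The mesenchyme markers had the sums given above, 234 to 936 CPM in E10.5 HE against 46.3 to 385 CPM in E10.5 EC, and their part in these values was not tested. Of 37 interferon and inflammatory genes 3 were higher (Ifitm1, Ifitm2 and Stat3) and 1 was lower, with the calls of Ifitm2 and Stat3 kept in 8 and 6 of the 13 runs without 1 library. The lower one was B2m, the light chain of MHC class I, which was higher in HE on both days, with 499, 428 and 462 CPM in E10.5 HE against 268, 222 and 206 CPM in E10.5 EC. In E8.5 HE, B2m had 83.3, 84.2, 190.0 and 108 CPM, against 14.8, 17.5 and 22.1 CPM in E8.5 EC (-1.68 ± 0.38, edgeR adjusted p = 0.01). In the insulin-like growth factor and imprinted list Igf1 was the only call of 25.

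No called change of the HE-EC difference was found in 28 ribosome biogenesis genes, 27 S phase genes, 24 mitosis genes, 23 glycolysis genes or 19 sterol synthesis genes by edgeR. At an unadjusted p under 0.05 there were 1, 2, 0, 5 and 4 of them in that order, and after adjustment DESeq2 called 3 glycolysis genes and no others, and limma voom 1 ribosome biogenesis gene and 2 glycolysis genes. In the empty directions of the venous, blood factor, stem cell and retinoic acid lists above, DESeq2 called none and limma voom 1 retinoic acid gene, and an unadjusted p under 0.05 gave 0, 2, 1 and 3. Ribosome biogenesis genes were lower in HE on both days, in 5 of 28 at E10.5 and in 19 of 28 at E8.5, with a median difference of differences of 0.15. The S phase list had a median of -0.43 and 4 of 27 lower in HE at E10.5 against 1 of 27 at E8.5. Hox cluster genes were higher in 2 of 33 (Hoxa9 and Hoxa10), with a median of 0.41 (0.73 with groups at 0 counts set to the floor of 3 counts), and their calls were kept in 6 and 3 of the 13 runs without 1 library. Among the marker lists of other cells, 4 genes were called higher and 2 lower, against 0.925% and 2.19% of all genes tested. The higher ones were Isl1 (1 of 16 cardiac markers tested), Cited1 (1 of 9 mesonephric), Ifitm1 (1 of 8 germ cell) and Tfrc (1 of 13 erythroid). The lower ones were Bmp4 (1 of 11 allantois markers tested) and Csf3r (1 of 13 macrophage and granulocyte). The other marker lists had no call. Isl1, a marker of cardiac progenitors, had 49, 74.3 and 66.3 CPM in E10.5 HE against 3.4, 8.04 and 6.38 CPM in E10.5 EC. In E8.5 HE, Isl1 had 25.9, 20.6, 33.3 and 18.1 CPM, against 18.3, 12.2 and 13.9 CPM in E8.5 EC (2.69 ± 0.45, edgeR adjusted p = 0.00047), and is itself part of the cardiac sum given above. The call of Tfrc was kept in 2 of the 13 runs without 1 library.

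Calls in the remaining lists went mostly to lower, as did those over all genes, 334 lower against 141 higher. Of 30 VEGF, angiopoietin and semaphorin genes 4 were lower (Flt4, Sema6d, Plxna2 and Robo4) and 2 higher (Slit2 and Slit3), with a median of -0.18, and the call of Slit2 was kept in 6 of the 13 runs without 1 library. Plxna2, a semaphorin receptor, had -3.23 ± 0.73, and Slit3, a guidance ligand, 4.66 ± 0.92 (edgeR adjusted p = 0.01 and 0.0027). Among 25 pan-endothelial genes 2 were lower, the receptor gene Robo4 and the transcription factor gene Ets1, with calls kept in 11 and 9 of the 13 runs without 1 library. Of 19 actomyosin genes 3 were lower (Cnn2, Cnn3 and Tpm4) and of 19 immediate early genes 1 was higher (Ier3), none kept in all 13 runs.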

How the data were processed

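RNA was sequenced from 28 libraries of 100 sorted mouse embryo cells each, whose cDNA was amplified by the SMARTer Ultra Low Input chemistry, as the labels' protocols say. The values are whole-number read counts per gene, deposited by the authors without normalization for 24015 genes with mm9 coordinates per the file headers, and TopHat, SAMtools, Subread and featureCounts 1.6.2 are named in the submitters' processing notes. No source used here gives the annotation release, the strand option or how multi-mapped reads were handled.

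Normalized read counts (CPM, scaled to library size) were computed here from the deposited counts with TMM library sizes. The filter on low counts was filterByExpr (minimum count 10), and 2723 genes were at 0 in all 28 libraries. Each population had 1 coefficient in a single fit of the 28 libraries by edgeR 4.0.16 in R 4.3.3 (robust quasi-likelihood, no replicate block), the difference of differences was tested as a contrast, and p was Benjamini-Hochberg adjusted over the 15238 genes tested, with calls under 0.05. A standard error is the log2 estimate divided by the square root of F. The common coefficient of variation was 0.563. Intervals on ratios of counts and floors of 3 counts cover counting error at 95% only. Total counts per library and gene detection are in the opening, and pairs of replicates differed by more than sampling noise. The procedure was tested on simulated data.

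The genes named were chosen by rule from the called genes whose mean reached 10 CPM in any of the groups compared, leaving out unnamed gene models. The rule took all reversals or the 15 of smallest p in a direction, genes with opposite signs of at least 1 log2, genes called on 1 day only, a panel of endothelial and blood genes, and called members of the lists. The values of 1 reversal to lower in HE taken by the rule are not reported here. The question, the panel and the lists were chosen with earlier results of these data known. Alternatives were DESeq2 1.42.0, limma 3.58.1 voom with quality weights, other scaling factors and filters, only the 13 libraries, a replicate block and leaving out each library.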

Additional observations from a re-analysis of the deposited data

Results flagged for a closer look

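The difference of differences is itself the test of whether the HE-EC difference on E10.5 departs from that on E8.5, and it was past the threshold for 141 genes higher and 334 lower by edgeR, with 5 reversals to higher and 24 to lower in HE. Among those that became higher in HE were Jag1 at 4.11 log2, Ifitm1 at 3.87, Itga4 at 3.40, Coro1a at 3.43 and Hlf, whose fitted 11.38 rests on 0 counts in E8.5 HE and is no measure of size. Of the 15 taken by the rule for named genes among those that became lower, the most negative were Pde2a at -7.06, Clec1b at -5.50, Bmp4 at -4.93, Igf1 at -4.43 and St8sia1 at -4.29. Arhgap18 followed at -3.79, Dhrs3 at -3.56, Pcdh7 at -3.15, Lpar1 at -3.13 and Prtg at -2.92. The least negative of these 15 were Gmfg at -2.45, Rap2a at -2.27, Ostf1 at -2.23 and Hapln1 at -2.18.

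In the 4 libraries of E8.5 HE, 1 library stood apart from the others in 8 of 125 genes examined, where chance gives about 1 in 20. Replicate 3 was the high one for Lyve1 (124.7 CPM), Lef1 (50.58 CPM) and Cyp26b1 (35.61 CPM), all 3 of which were called lower in the difference of differences. Replicate 1 was high for Meis1 (108.8 CPM) and Bmper (0.6211 CPM), and replicate 2 for Coro1a (9.025 CPM) and Gfi1 (0.2304 CPM). Replicate 4 was low for Runx1 (1.03 CPM). The calls of Lyve1, Lef1, Cyp26b1, Coro1a, Bmper and Runx1 were kept when that library was left out.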

How the results depend on the processing

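Counts are given in the order higher, lower, reversals to higher, reversals to lower, calls at E10.5 and calls at E8.5, against 141, 334, 5, 24, 534 and 1060 in the edgeR fit of all 28 libraries. DESeq2 gave 256, 538, 14, 53, 945 and 1682, and held all 5 and all 24 reversals. limma voom with quality weights gave 270, 519, 17, 66, 1195 and 1752, with 5 and 20 of them. A fit of only the 13 libraries gave 68, 170, 3, 14, 256 and 577, with 2 (Jag1 and Ifitm1) and 10. The stricter filter of 10 CPM in 3 libraries gave 8 reversals to higher. Other scaling factors and no filter stayed within 1.5 times. Their median difference of differences over all genes lay between -0.055 and 0, against -0.018 in the main fit. Leaving out 1 library gave 94 to 150, 221 to 389, 3 to 8, 13 to 32, 306 to 619 and 594 to 1400. Same-numbered HE and EC libraries deviated together at r of 0.264, 0.178 and 0.082 at E10.5 and 0.215, 0.174 and 0.177 at E8.5, each the highest for its HE library. Since 1 pair was under 0.1 and no label ties a number to a shared litter or sort, the numbers were not taken to pair the samples. A source shared by same-numbered libraries is not excluded. A replicate block within day gave 380, 546, 37, 71, 1356 and 2237 over 28 libraries, and 8 and 39 reversals over the 13 libraries. Of 115 genes examined singly and called by edgeR, 90 were called in each run without 1 library, 28 were not called in the fit of the 13 libraries, 21 not in the block fit of the 13, and 18 in neither. Of the 90, Itga4, Slit3 and Dock4 were lost in the block fit of the 13 libraries, Lyve1, Procr, Oxct1 and Plxna2 in the fit without a block, and Ptgs1, Csf3r and Dtx4 in both. The block over 28 libraries did not call Gfi1 (adjusted p = 0.052) or Lama5 (0.082), and called Mecom (0.008), Nr2f2 (0.0063) and Cdh5 (0.038), which edgeR without it did not. Kit, at -0.12, was 0.09 and 0.05 in the block fits and -0.52 to 0.24 without single libraries. Itga2b, at 0.12, was 0 in the 13-library block and -0.06 to 0.33 without single libraries. Neither gene was called in the edgeR fit. The fits that left libraries out also held fewer libraries, and the cause of these changes was not tested. Depth limits genes near 0 counts, such as Hlf, Trpc6 and Gfi1, to bounds or wide intervals. Fitted sizes are likewise uncertain where E8.5 EC held few counts, as for Gja5, Esm1, Nedd9, Cyp26b1, Kcnj2, Apold1, Dapk2 and Cd109.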

Other observations

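The series also holds blood-forming populations that entered the fit but stood in no comparison above, labelled pro-HSC/HPC at E9.5 and pre-HSC I and pre-HSC II at E10.5, with 3 libraries each, and the levels in them of the 5 reversals to higher in HE and of 5 of the 24 to lower, these 5 picked after their values were seen, are given without a test. Coro1a had 485, 459 and 321 CPM in pre-HSC II, 170.3, 168 and 129 CPM in pre-HSC I and 18.4, 33.8 and 28.5 CPM in pro-HSC/HPC. Itga4 had 159, 219 and 236 CPM in pre-HSC II and 111, 204 and 237 CPM in pre-HSC I. Hlf had 87.3, 132 and 119 CPM in pre-HSC II, 44.3, 95.1 and 83.6 CPM in pre-HSC I and 28.1, 15.9 and 25.5 CPM in pro-HSC/HPC. Ifitm1 had 319, 210.5 and 129 CPM in pre-HSC II and 130, 71.0 and 48.15 CPM in pre-HSC I. For these 4 genes every pre-HSC library lay above every E10.5 HE library. Jag1 did otherwise, with 31.5, 9.96 and 17.1 CPM in pre-HSC II and 297, 363 and 253.5 CPM in pre-HSC I, all below the E10.5 HE libraries.

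Of the genes that became lower in HE, Bmp4 was at 0.153, 0.447 and 0.335 CPM in pre-HSC II and 6.77, 1.10 and 4.09 CPM in pre-HSC I. Clec1b had 17.4, 7.20 and 7.71 CPM in pre-HSC II and 17.3, 8.95 and 13.6 CPM in pre-HSC I, below every E10.5 EC library. Igf1 had 92.5, 72.0 and 80.1 CPM in pre-HSC II and 183, 100.1 and 109 CPM in pre-HSC I. Pde2a had 6.93, 12.6 and 4.07 CPM in pre-HSC II and 11.1, 11.6 and 8.57 CPM in pre-HSC I. Gmfg, an actin regulator of blood cells, had 215, 146 and 139 CPM in pre-HSC II and 118, 116 and 56.0 CPM in pre-HSC I.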
